A study of Mus musculus with 4 samples.

Results

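Methionine tRNAs of bone marrow were seen mainly as internal fragments, with little coverage at either end of the tRNA-Met table. By the share of fragments ending at the last position, Met lay near the middle of the 23 families. In each of 4 libraries more coverage lay after the anticodon loop than before it. The stretch counted after the loop (positions 39 to 72) is longer than that before it (positions 1 to 31). In Dnmt2-/- replicate 2 the blocks were nearly level, with 414 reads at the top after the loop and 404 before it. The fragments are the reads on the forward strand of the tRNA-Met table, 1 of 23 tRNA families and 72 of the 1698 positions measured, and all of its rows were used. The small RNA libraries came from total RNA of bone marrow of C57BL/6 mice at postnatal day 8, with 2 libraries of Dnmt2-/- mice and 2 libraries of wild-type (WT) mice. The labels name neither the kind of Dnmt2 mutation nor whether replicates are separate animals. Errors and p-values therefore describe the spread among these 4 libraries, which may be technical. Those of the fitted models also draw on the spread of the other families or positions. The tables hold no mRNA, so neither the loss of Dnmt2 nor the tissue could be checked in them.

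Methionine is read by a pair of tRNA species with the anticodon CAT. The initiator tRNA enters the ribosome at the start codon, and the elongator tRNA serves internal methionine codons. RefSeq names 16 nuclear tRNA-Met genes of the mouse (symbols beginning n-TMcat), but the table merges its reads into 1 profile, so initiator and elongator cannot be told apart. Dnmt2 is a cytosine methyltransferase that acts on position 38 in the anticodon loop of tRNA-Asp, tRNA-Gly-GCC and tRNA-Val-AAC, and stress-activated ribonucleases such as angiogenin cut tRNAs in that loop. Methionine tRNAs are not among the known Dnmt2 substrates.

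Coverage counts a read at every position it spans. Position 1 is the first row of the table, and no source used here ties the rows to standard tRNA numbers, so the loop window at positions 32 to 38 and the anticodon at positions 34 to 36 are placed by row number. Values above 0 were whole multiples of one step per library, read here as the worth of 1 read. The highest position of the Met table held 536 and 414 reads in Dnmt2-/- replicates 1 and 2, and 1021 and 750 reads in WT replicates 1 and 2. The WT libraries are thus the deeper ones. The lowest position held 31 and 22 reads in the Dnmt2-/- libraries, against 37 and 22 in the WT libraries, and no position fell under a floor of 3 reads. Differences of a few reads near the ends of the table are therefore not detectable at this depth.

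Coverage formed a pair of blocks separated by a trough in the anticodon loop. After the loop, it was highest at position 44 in Dnmt2-/- replicate 1 and position 45 in Dnmt2-/- replicate 2, against position 48 in WT replicate 1 and position 45 in WT replicate 2. Before the loop, position 22 was the highest in both Dnmt2-/- libraries, with 119 and 404 reads in replicates 1 and 2. In the WT libraries it shared the highest value with other positions, at 264 reads in replicate 1 (positions 22 to 25) and 578 reads in replicate 2 (positions 22 and 27). Between these tops coverage was lowest at position 33 in both libraries numbered 1 and at position 34 in both libraries numbered 2. The trough held 13.6% and 37.9% of the reads of the highest position in Dnmt2-/- replicates 1 and 2, and 13.8% and 29.5% in WT replicates 1 and 2.

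**Figure D1:**
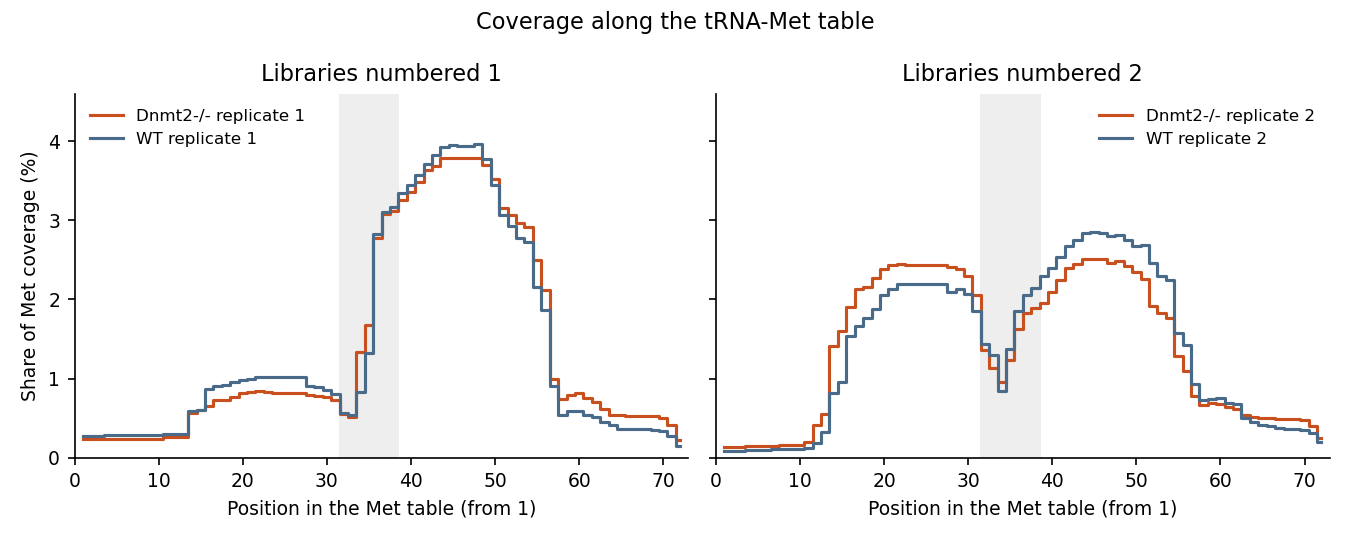
Share of the Met coverage (%, y axis) at each position of the table (x axis, counted from 1), for the Dnmt2-/- and WT libraries numbered 1 (left) and 2 (right); the grey band marks positions 32 to 38. The block before the loop is low in both libraries numbered 1, where its top is 0.222 (Dnmt2-/-) and 0.259 (WT) of the top after the loop. In those numbered 2 it is nearly level with the other block in Dnmt2-/-, at 0.976, and lower than it in WT, at 0.771.

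The balance of the blocks differed more between the replicate numbers of a genotype than between the genotypes of a number. Positions 1 to 31 held 16.9% and 42.7% of the Met coverage in Dnmt2-/- replicates 1 and 2, against 20.2% and 35.8% in WT replicates 1 and 2. Positions 39 to 72 held 70.0% and 47.2% in the Dnmt2-/- libraries and 67.5% and 53.2% in the WT libraries. In each genotype the library numbered 1 had the larger 3′ part, and the genotypes overlapped in both windows. The share of positions 1 to 31 in number 2 was 2.53 times that in number 1 in Dnmt2-/-, and 1.77 times in WT. The labels do not say what the number marks.

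The share of the loop window varied least between libraries. It held 13.1% and 10.0% of the coverage in Dnmt2-/- replicates 1 and 2 and 12.4% and 11% in WT replicates 1 and 2, so the WT values lay between the Dnmt2-/- values. Met had the 3rd highest loop share of 23 families in both Dnmt2-/- libraries, and the 3rd and 2nd highest in WT replicates 1 and 2. The median family had 4.18% and 4.79% in the Dnmt2-/- libraries and 4.85% and 4.99% in the WT libraries. Within the window, coverage was highest at position 38 in each library, with 441 and 311 reads in Dnmt2-/- replicates 1 and 2 and 818 and 563 reads in WT replicates 1 and 2. Position 38 is the last of the window, and coverage rose further just after it in each library, so it is no peak of its own.

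Fragment starts and ends were read from the net change of reads between neighbouring positions. A net start at a position means that more reads began there than ended just before it, and a net end that more reads ended there than began at the next position. The summed net starts, a lower bound on the number of Met reads, were 594 and 669 in Dnmt2-/- replicates 1 and 2 and 1161 and 1126 in WT replicates 1 and 2. Dividing the summed coverage by them gives a mean fragment length of at most 23.8 and 24.6 positions in the Dnmt2-/- libraries, and at most 22.2 and 23.4 positions in the WT libraries. The average sequenced Met fragment thus spans far less than the 72 positions of the table. The libraries were made with size selection, so this length does not describe all Met RNA of the tissue.

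In both libraries numbered 1 the largest net start lay at position 36, in the anticodon as placed by row number. In those numbered 2 the largest lay before the loop, at position 14 in Dnmt2-/- and position 16 in WT. Position 36 made up 26.1% and 9.57% of the summed starts in Dnmt2-/- replicates 1 and 2 (155 and 64 reads) and 33.3% and 11.4% in WT replicates 1 and 2 (387 and 128 reads). Position 35 had 8.08% and 7.17% in the Dnmt2-/- libraries and 10.7% and 12.6% in the WT libraries. Here both Dnmt2-/- libraries lay below both WT libraries, a difference given as a description only. How often net starts separate this way over all families was not counted. For shares of coverage it was 15.9% of all positions. Position 34 held 19.5% of the starts in Dnmt2-/- replicate 1 (116 reads), against 6.37% in WT replicate 1 (74 reads). In both libraries numbered 2 its net start was 0, since the reads that ended at position 33 outnumbered those that began at position 34. Positions 34 to 36 together gave 53.7% and 16.7% of the net starts in Dnmt2-/- replicates 1 and 2, and 50.4% and 24.0% in WT replicates 1 and 2.

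A further set of starts was spread over the positions that follow the loop. Positions 37 to 48 gave 24.4% and 22.1% of the net starts in Dnmt2-/- replicates 1 and 2, and 25.6% and 23.2% in WT replicates 1 and 2. This span was chosen from the profile, and its values hardly differ between libraries.

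Further starts lay before the loop, at positions 14 and 16. Position 14 gave 7.24% and 21.2% of the net starts in Dnmt2-/- replicates 1 and 2 (43 and 142 reads), and 6.37% and 11.5% in WT replicates 1 and 2 (74 and 130 reads). Position 16 gave 1.18% and 7.62% in the Dnmt2-/- libraries (7 and 51 reads), against 5.77% and 13.7% in the WT libraries (67 and 154 reads). Within each number, position 14 thus took a larger share of starts in Dnmt2-/- and position 16 a smaller one, while across numbers the genotypes overlap at both positions. Over positions 12 to 22, a span chosen from the profile, net starts summed to 13.8% and 55.5% in Dnmt2-/- replicates 1 and 2 and to 16.2% and 48.4% in WT replicates 1 and 2.

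Starts at the 5′ end of the table made up a smaller share in Met than in the median family. Position 1 held 34 and 22 reads in Dnmt2-/- replicates 1 and 2, and 71 and 22 reads in WT replicates 1 and 2. As a share of the summed net starts this was 5.72% in Dnmt2-/- replicate 1 (exact 95% binomial interval 4.0 to 7.91%) and 3.29% in Dnmt2-/- replicate 2 (2.07 to 4.94%). In WT replicates 1 and 2 it was 6.12% (4.81 to 7.65%) and 1.95% (1.23 to 2.94%). Between genotypes of one number the intervals overlap, which is no test of their difference. Met ranked 15th and 19th of 23 families by this share in Dnmt2-/- replicates 1 and 2, and 18th and 19th in WT replicates 1 and 2. The median family had 28.8% and 38.6% of its net starts at position 1 in the Dnmt2-/- libraries, and 30.3% and 35.5% in the WT libraries. GlyGCC, a family of Dnmt2 substrates seen as 5′ fragments, had 96.8% and 91.8% in the Dnmt2-/- libraries and 97.9% and 90.3% in the WT libraries.

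**Figure D2:**
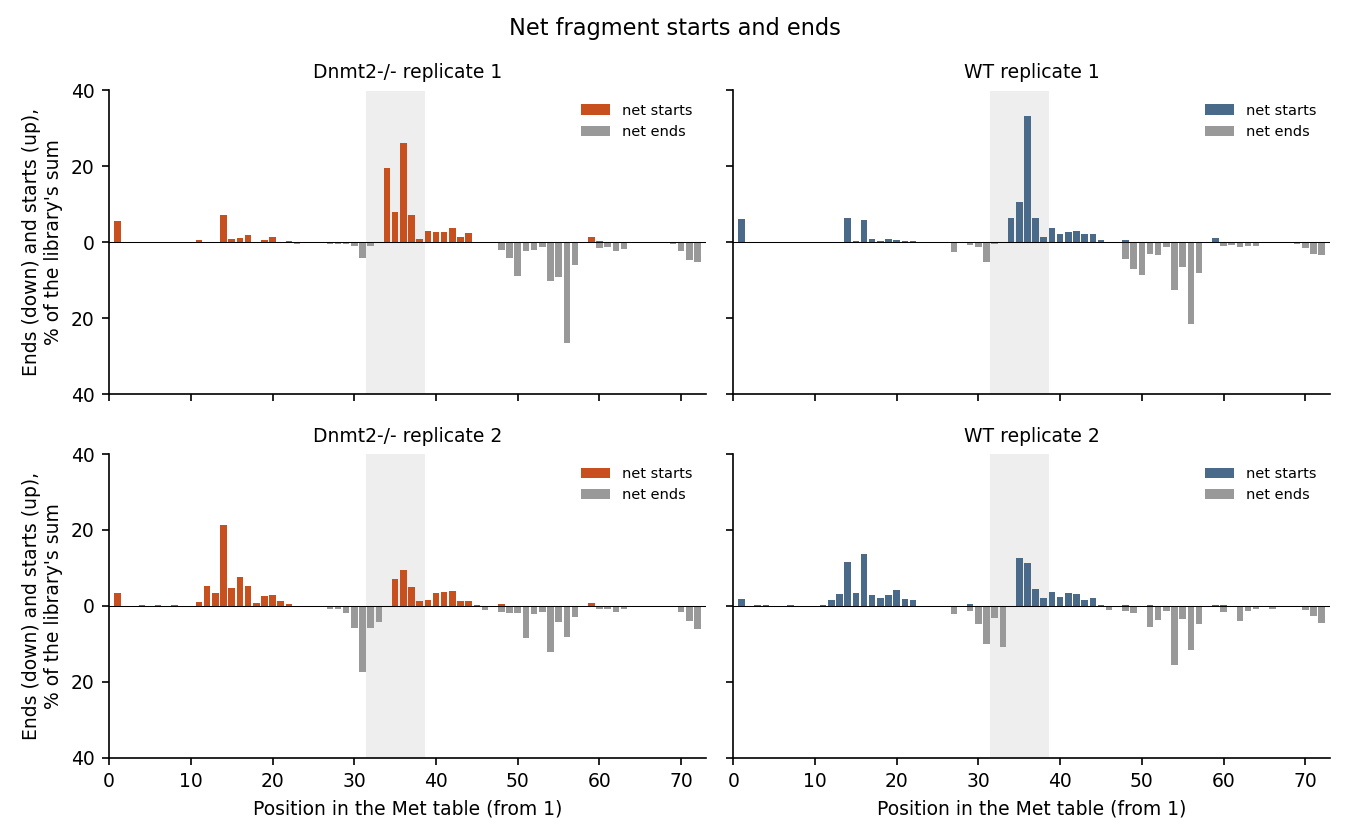
Net starts (up, coloured) and net ends (down, grey) at each position of the Met table (x axis, counted from 1), as a percentage of the summed net starts or ends of each library (y axis); Dnmt2-/- libraries are on the left and WT libraries on the right, and the grey band marks positions 32 to 38. Position 36 holds 26.1% (Dnmt2-/-) and 33.3% (WT) of the starts in libraries numbered 1, and 9.57% (Dnmt2-/-) and 11.4% (WT) in those numbered 2, where starts at positions 12 to 22 are more frequent.

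Ends of the downstream block were most frequent at positions 54 to 57, with further ends at positions 48 to 53. Both spans were chosen from the profile. Positions 48 to 53 held 20.5% and 17.6% of the net ends in Dnmt2-/- replicates 1 and 2. In WT replicates 1 and 2 they held 27.6% and 13.5%. Position 56 held 26.6% and 8.07% of the net ends in Dnmt2-/- replicates 1 and 2 and 21.4% and 11.6% in WT replicates 1 and 2. Position 54 held 10.1% and 12% in the Dnmt2-/- libraries and 12.5% and 15.5% in the WT libraries, and position 55 held 9.09% and 4.33% in Dnmt2-/- against 6.37% and 3.46% in WT. Positions 54 to 57 together gave 51.9% and 27.2% of the net ends in the Dnmt2-/- libraries, and 48.4% and 35.3% in the WT libraries. In each library more net ends lay at these positions than at positions 70 to 72. The tables do not join a start to its end.

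Net ends of the upstream block lay around the 5′ edge of the loop. They were largest at position 31 in both Dnmt2-/- libraries and WT replicate 1. In WT replicate 2 they were largest at position 33 (121 reads), inside the loop window. Position 31 held 4.04% and 17.3% of the net ends in Dnmt2-/- replicates 1 and 2 (24 and 116 reads), and 5.25% and 9.95% in WT replicates 1 and 2 (61 and 112 reads). Position 33 showed net ends in both libraries numbered 2, with 4.33% in Dnmt2-/- and 10.7% in WT, and none in those numbered 1. Over positions 27 to 33 net ends summed to 7.07% and 36.6% in the Dnmt2-/- libraries, and to 10.4% and 32.2% in the WT libraries. The shares of upstream starts and of upstream ends were thus both highest in the pair numbered 2.

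At the 3′ end of the table, the last position, 72, held 31 and 41 reads in Dnmt2-/- replicates 1 and 2, and 37 and 51 reads in WT replicates 1 and 2. That was 5.22% of the summed net starts in Dnmt2-/- replicate 1 (exact 95% binomial interval 3.57 to 7.33%) and 6.13% in Dnmt2-/- replicate 2 (4.43 to 8.22%). In WT replicates 1 and 2 it was 3.19% (2.25 to 4.37%) and 4.53% (3.39 to 5.91%). Within each number the intervals of the genotypes overlap, which is no test of their difference. Both Dnmt2-/- shares lay above both WT shares, a description only. Met ranked 12th and 9th of 23 families by this share in Dnmt2-/- replicates 1 and 2, and 13th and 9th in WT replicates 1 and 2. The median family had 5.22% and 2.88% in the Dnmt2-/- libraries and 3.55% and 2.66% in the WT libraries, so Met lay near the middle of the families here. Over positions 70 to 72, a span picked from the profile, net ends gave 12.1% and 11.7% in the Dnmt2-/- libraries and 7.58% and 8.35% in the WT libraries. These groups did not overlap, and no test was made on a span chosen this way. How often such spans separate over all families was not counted, so the gap is a description only. Net ends equal net starts in sum, so both percentages have one base, and intervals cover counting error only.

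The genotypes were compared for the amount of Met fragment coverage, in deposited units, which are coverage divided by a constant per library that the sources used here do not explain. In bulk RNA, fewer cells of a type and less RNA per cell cannot be told apart. Summed over the table, Met had 0.186 and 0.462 units in Dnmt2-/- replicates 1 and 2, and 0.169 and 0.356 units in WT replicates 1 and 2. The 4 libraries thus separated by number first, and in each number the Dnmt2-/- library was the higher one, by a ratio of 1.10 in number 1 and 1.30 in number 2, as was the case in both numbers in 73.9% of families. The means were 0.324 ± 0.196 units in Dnmt2-/- and 0.263 ± 0.132 units in WT (SD, n = 2 each), and the ranges overlap. In limma, a linear model fitted over all families on log2(value + 0.001) with Benjamini-Hochberg adjustment, the log2 difference was 0.25 (SE 0.84, 95% interval −1.81 to 2.32, adjusted p = 0.973), against a median of 0.47 over all families. It was −0.40 without Dnmt2-/- replicate 2 and −0.28 without WT replicate 1. No family passed the threshold of 0.05 (0 of 23, 0%), nor did any reach it in limma without adjustment (0). With the replicate number as a block, 6 of 23 families reached it in limma without adjustment. After adjustment 2 of 23 passed in that fit, neither of them Met, whose SE was then 0.34.

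These ratios turned round with the scaling of the libraries. Met made up 0.169% and 0.243% of the coverage of all families in Dnmt2-/- replicates 1 and 2, and 0.193% and 0.248% in WT replicates 1 and 2, so on this scale the Dnmt2-/- library was the lower one in each number. The ratios were then 0.875 and 0.980, and with libraries rescaled to one median family they were 0.969 and 0.759. Met kept the 15th place of 23 families by summed coverage in each library.

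Of the families that hold Dnmt2 substrates (Asp, GlyGCC and Val), 0 of 3 passed the same test of family totals, and their median log2 difference was 0.42. The Dnmt2-/- to WT ratio of Val, at 0.813 in number 1 and 1.40 in number 2, stood on both sides of that of Met. The ratio of GlyGCC, at 1.40 and 1.37, and that of Asp, at 1.27 and 1.41, lay above Met in both numbers. No test was made of these differences between families.

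Window shares, which do not depend on the scaling, also overlapped between genotypes. Positions 1 to 31 held 29.8% ± 18.3 of the Met coverage in Dnmt2-/- and 28% ± 11 in WT (SD, n = 2 each). On the log2 odds scale the limma difference was 0.056 (SE 0.75, 95% interval −1.74 to 1.85, adjusted p = 0.966). For the loop window the means were 11.5% ± 2.14 in Dnmt2-/- and 11.7% ± 0.954 in WT, and limma gave a difference of −0.036 (SE 0.26, interval −0.70 to 0.63, adjusted p = 0.931). Positions 39 to 72 held 58.6% ± 16.1 in Dnmt2-/- and 60.3% ± 10.1 in WT. For them limma gave a difference of −0.086 (SE 0.69, interval −1.48 to 1.31, adjusted p = 0.957). This SE was the same in the other families named here, so it reflects a spread pooled over families and not that of Met. Of all families, 0 of 23 (0%) passed limma's threshold for any of these windows, and an unadjusted p under 0.05 was found for 1 family (4.35%) in the loop window and for 0 in the others. With the replicate number as a block, 1 of 23 families passed for the loop window, and it was not Met. Without Dnmt2-/- replicate 2 the difference of positions 1 to 31 was −0.86, that of the loop 0.19 and that of positions 39 to 72 was 0.60; without WT replicate 1 they were −0.50, 0.072 and 0.34. The intervals are wide, so a change in either direction well beyond the estimates is not shown to be absent.

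Within replicate numbers the window ratios pointed in opposite directions. The share of positions 1 to 31 in Dnmt2-/- was 0.838 times that in WT in number 1 and 1.19 times in number 2. The ratio of the loop shares was 1.06 in number 1 and 0.912 in number 2, and that of positions 39 to 72 was 1.04 and 0.888. Both Dnmt2-/- libraries lay below both WT libraries for the loop share in 8 of 23 families (34.8%), and Met was not one of them.

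**Figure D3:**
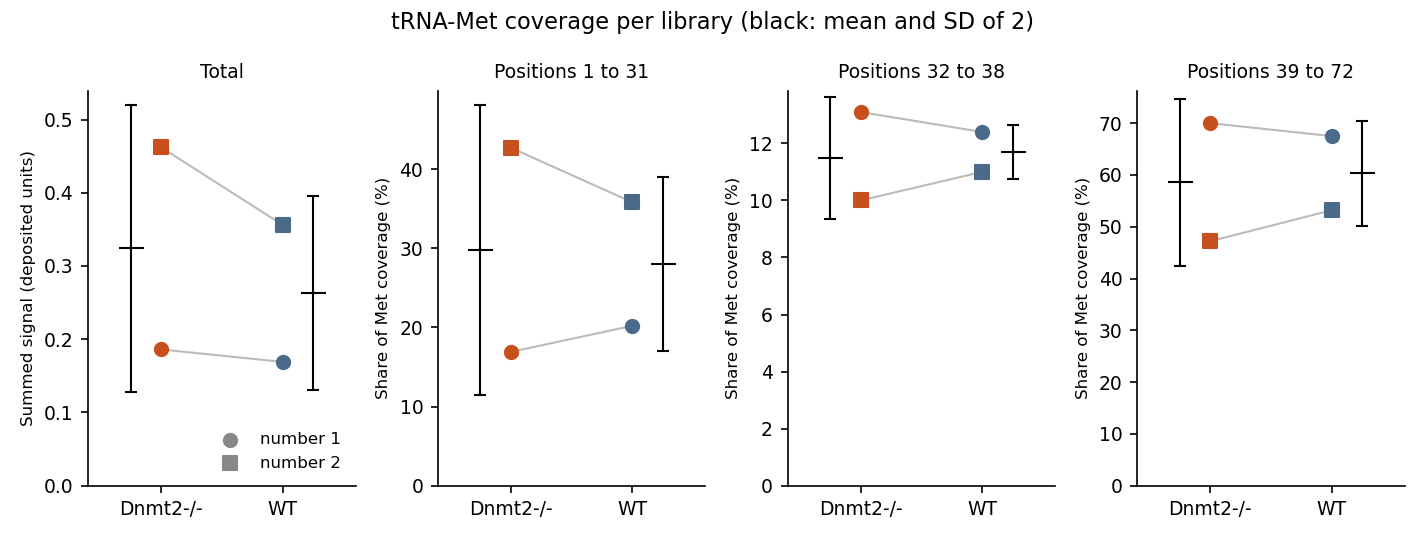
Summed Met signal (deposited units) and the share of Met coverage (%) in 3 windows, for Dnmt2-/- (left in each panel) and WT libraries; circles are libraries numbered 1, squares those numbered 2, grey lines join libraries of one number, and black bars give the mean and SD of 2 libraries. The genotypes overlap in each panel, and for the total the libraries numbered 2 (0.462 in Dnmt2-/- and 0.356 in WT) lie above those numbered 1 (0.186 in Dnmt2-/- and 0.169 in WT).

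The genotypes were also set side by side position by position. In limma 0 of the 72 Met positions passed (lowest adjusted p = 0.999), and 0 reached 0.05 without adjustment. Over all families, 0 of 1656 positions with coverage (0%) passed, likewise with 0 at an unadjusted 0.05. This model holds genotype alone, so the shift between replicate numbers counts as error, and the zeros do not show that differences are absent. With the number as a block, limma gave an unadjusted p under 0.05 at 216 of 1656 positions, and 0 passed after adjustment. As deposited, the estimate was above 0 at each of the 72 positions, with a median log2 difference of 0.25 and a range of 0.11 to 0.68, against a median of 0.44 over all positions tested. Both Dnmt2-/- libraries lay above both WT libraries at 0 Met positions and below them at 0, compared with 17.1% above and 0.302% below over all positions. The Dnmt2-/- to WT ratio was above 1 in both numbers at 43 of 72 positions (59.7%), a share like the 59.5% of all positions, and below 1 in both at 0 of 72 (5.98% of all). The 43 positions are 14, 15 and the whole stretch from position 32 to 72.

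The largest such estimates lay near the 3′ end, at positions 68 to 70. Position 70 had 0.000946 and 0.00219 units in Dnmt2-/- replicates 1 and 2, and 0.000578 and 0.00127 units in WT replicates 1 and 2. The Dnmt2-/- library was the higher one in each number, by ratios of 1.64 and 1.72, on 72 and 78 reads in Dnmt2-/- against 88 and 94 reads in WT. The log2 difference was 0.68 (SE 0.78, limma adjusted p = 0.999) at position 70, 0.67 at position 69 and 0.66 at position 68. At position 72 it was 0.61 (SE 0.83), with ratios of 1.68 and 1.67. Without Dnmt2-/- replicate 2 the difference was 0.12 at position 70 and −0.037 at position 72, and without WT replicate 1 it was 0.17 and 0.013. With libraries rescaled, position 70 was at 0.35 (one total) or 0.25 (one median family). These positions share reads and are not separate observations.

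In the anticodon as placed by row number, position 34 stood out from its neighbours. It had 0.00248 and 0.00440 units in Dnmt2-/- replicates 1 and 2, and 0.00141 and 0.00299 units in WT replicates 1 and 2. The ratio was 1.76 in number 1, the highest of the table there, and 1.47 in number 2. The log2 difference was 0.66 (SE 0.74, limma adjusted p = 0.999), or 0.26 without Dnmt2-/- replicate 2 and 0.14 without WT replicate 1. With libraries rescaled it fell to 0.31 (one total) or 0.20 (one median family). Position 35 had ratios of 1.40 and 1.17 and a log2 difference of 0.35, and position 36 had ratios of 1.08 and 1.14 and a log2 difference of 0.15. The direction at both positions turned with 1 library left out, to −0.087 and −0.13 without Dnmt2-/- replicate 2 and to −0.21 and −0.088 without WT replicate 1. It also turned with libraries rescaled to one total (−0.0098 and −0.21) or to one median family (−0.12 and −0.32). At position 1 the ratios were 0.958 and 2.08, with 34 against 71 reads in number 1 and 22 against 22 reads in number 2, and the log2 difference was 0.40 (SE 0.66).

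As shares of the Met coverage, which take out the difference in the total, the ratio was above 1 in both numbers at 11 of 72 positions (15.3%, against 30.1% of all positions) and below 1 in both at 16 of 72 (22.2%, against 29.8%). The lower ones are positions 32, 33 and 36 to 49. Position 36, for example, held 2.77% and 1.63% in Dnmt2-/- replicates 1 and 2, against 2.82% and 1.86% in WT replicates 1 and 2. Position 34 held 1.34% and 0.953% of the coverage in Dnmt2-/- replicates 1 and 2, and 0.834% and 0.839% in WT replicates 1 and 2. Position 70 held 0.509% and 0.473% in the Dnmt2-/- libraries, against 0.341% and 0.357% in the WT libraries. Both Dnmt2-/- libraries lay above both WT libraries at the same 11 positions, which are position 34 and positions 63 to 72. Over all families such positions made up 14.7%, so the count of Met lies near the background. Below both WT libraries lay 0 of 72 positions, against 15.9% of all positions.

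**Figure D4:**
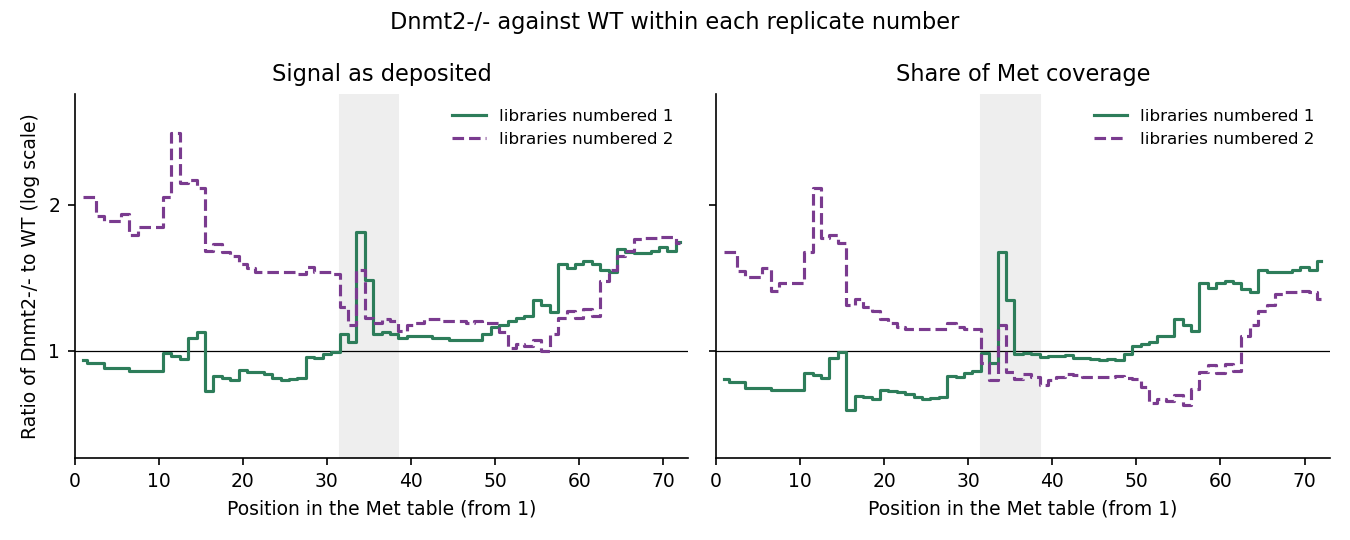
Ratio of the Dnmt2-/- to the WT library of one replicate number at each position of the Met table (x axis, counted from 1; y axis on a log scale), for the signal as deposited (left) and for the share of the Met coverage (right); the solid line is number 1, the dashed line number 2, and the grey band marks positions 32 to 38. Both lines lie above 1 at position 34, at 1.76 and 1.47 as deposited, and at position 70, at 1.64 and 1.72, while before the loop they part, to 0.958 and 2.08 at position 1.

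Among the other families, the one with the most similar distribution of coverage over the 3 windows was Asn, at a Euclidean distance of 7.87 percentage points between the mean shares of 4 libraries. Ile followed at 13.4 and SeC, the selenocysteine tRNA, at 14.7 percentage points. Met had a mean of 28.9% before the loop, 11.6% in it and 59.5% after it, Asn had 29.2%, 17.0% and 53.8%, and Ile had 39.2%, 3.37% and 57.4%. GlyGCC and Val, at 94.9% and 86.4% before the loop, were far from Met, at distances of 88.2 and 77.0, whereas Asp, at 16.8%, was at 21.8. This order rests on means and did not hold in each library. In Dnmt2-/- replicate 1, Asn (15.0% before the loop, 68.7% after it) was near Met (16.9% and 70.0%). In WT replicate 1, Met (20.2% and 67.5%) was nearer to Asp (17.4% and 76.1%) than to Asn (39.1% and 43.4%). In Asn the genotypes overlapped in positions 1 to 31 too, with 15.0% and 35.6% in Dnmt2-/- replicates 1 and 2 and 39.1% and 27.2% in WT replicates 1 and 2.

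**Figure D5:**
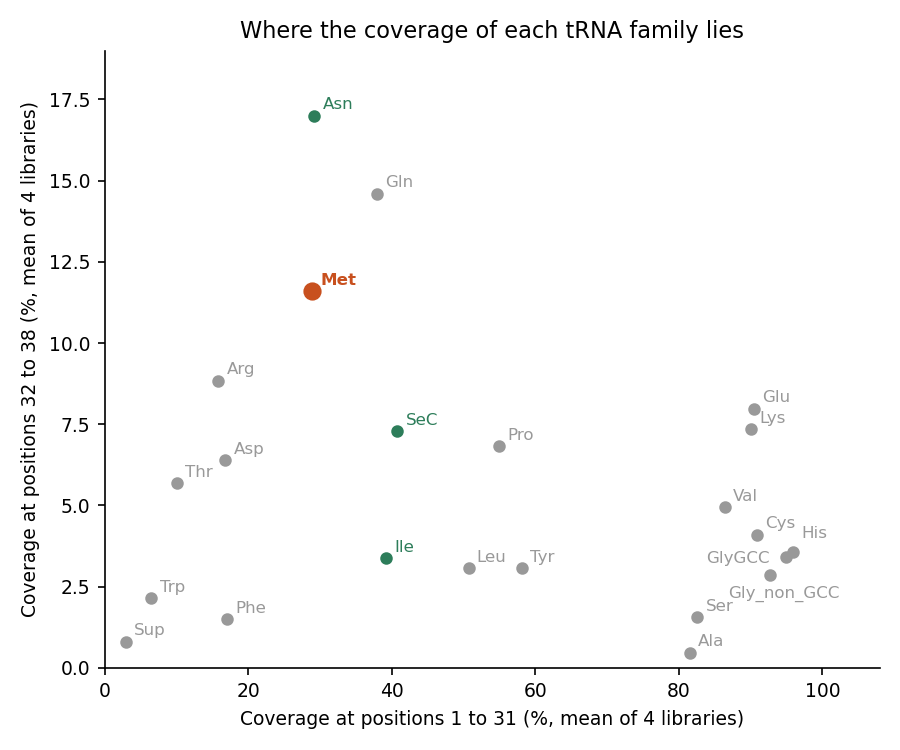
Share of the coverage at positions 1 to 31 (x axis) and positions 32 to 38 (y axis) in each of 23 tRNA families, as means of 4 libraries of both genotypes; Met is shown in orange and the 3 families nearest to it in green. Met lies at 28.9% and 11.6%, next to Asn at 29.2% and 17.0%, and away from the families seen mainly as 5′ fragments, such as GlyGCC at 94.9% and 3.41%.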

How the data were processed

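Small RNA of mouse bone marrow was sequenced in 2 Dnmt2-/- and 2 WT libraries. Per the labels' protocols, Trizol RNA was treated with DNase I, end-repaired with T4 polynucleotide kinase and made into libraries with a commercial small RNA kit and size selection. The tools named, per the submitters' processing notes, were CASAVA 1.8.3 and Bowtie. Settings, genome build, tRNA reference and the treatment of reads matching several tRNAs are not given in these sources. The deposited values are signal, that is coverage for each library and each strand (per the file headers), divided by one unexplained constant per library, so levels between libraries depend on it and shares do not. Sequences of tRNA genes were not used here.

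All values above 0 (100%, within 0.01 of a step) were whole multiples of a step that is constant in a library, 1.31e-05 and 2.80e-05 in Dnmt2-/- replicates 1 and 2 and 6.57e-06 and 1.35e-05 in WT replicates 1 and 2, read as 1 read. The floor of 3 reads is 3.94e-05, 8.41e-05, 1.97e-05 and 4.05e-05 units in the same order. The table of all glycine tRNAs sums its 2 parts and was left out, leaving 23 families of 70 to 85 positions. Rows are labelled from 0 and counted here from 1.

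Forward coverage was tested with limma 3.58.1 in R 4.3.3, genotype as the sole term, two-sided, Benjamini-Hochberg adjusted over 23 families or 1656 positions, on log2(value + 0.001) for totals, on log2(value + 1e-04) for positions, and on the log2 odds with 0.001 added to both sides for shares; fold changes on these scales understate low values. Coverage counts a read at many positions, so no count model was used. An exact permutation test of 2 against 2 libraries cannot go below p = 0.333 (two-sided), so none is given for single values. The fits were tested on simulated data, with a log2 difference of 2 set at 200 of 1656 positions. At an SD of 0.1 or 0.3 between libraries, 200 of these 200 were recovered, and at an SD of 0.8 only 47. With 2 libraries per genotype the SE of a difference equals that SD. It ran from 0.66 to 1.26 at the Met positions, so even a change of this size can be missed. Intervals are Clopper-Pearson at 95%; reads carry no molecular identifiers, so intervals and floors cover counting error only, and net starts only approximate independent reads. Named were positions 1, 34 to 36 and 72, the highest position per window, the 4 largest net starts and ends, the 3 largest estimates per direction among positions whose ratio has one side in both numbers, the 3 families nearest to Met by window shares, and Asp, GlyGCC and Val. The members and lists were chosen with earlier results of these data known. The alternatives were fits without each library, a fit with the replicate number as a block, and other scalings, pseudocounts, windows, filters and measures.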

Additional observations from a re-analysis of the deposited data

Results flagged for a closer look

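Reads on the reverse strand of the Met table, which no comparison used, exceeded the limit of 3 reads that a count of 0 allows in 3 of 4 libraries. Their highest position held 4 reads in Dnmt2-/- replicate 2 and 9 reads in each WT library, against 3 reads in Dnmt2-/- replicate 1. Reverse coverage was 0.686% and 0.631% of forward coverage in Dnmt2-/- replicates 1 and 2, and 0.594% and 0.741% in WT replicates 1 and 2. In each library the first position with a reverse read was 11.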

How the results depend on the processing

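No alternative brought Met or any Met position past the threshold. Of 166 recomputed values, 136 kept their direction and their side of the threshold (or stayed within the spread), 26 turned round and 4 moved; the cause was not tested. Leaving out each library in turn, the log2 difference ran from −0.40 to 0.91 for the total, −0.86 to 0.98 for positions 1 to 31, −0.26 to 0.19 for the loop, −0.77 to 0.60 for positions 39 to 72, −0.21 to 0.90 at position 35, −0.13 to 0.42 at position 36 and −0.037 to 1.26 at position 72. The total turned negative without Dnmt2-/- replicate 2 (−0.40) and without WT replicate 1 (−0.28), and so did positions 1 to 31 (−0.86 and −0.50), while the loop (0.19 and 0.072) and positions 39 to 72 (0.60 and 0.34) turned positive. At position 70 the range was 0.12 to 1.25, lowest without Dnmt2-/- replicate 2, and at position 34 it was 0.14 to 1.17, lowest without WT replicate 1. Where 1 library of a genotype remains, it is assumed to vary like the others. The count of Met positions past the threshold was 0 throughout. With libraries rescaled to one total the estimate was −0.11 for the total, −0.0098 at position 35 and −0.21 at position 36, and the ratios within numbers 1 and 2 were 0.875 and 0.980. With one median family it was −0.22 for the total, −0.0048 at position 1, −0.12 at position 35 and −0.32 at position 36, and the ratios were 0.969 and 0.759. With each family rescaled to one total position 36 was at −0.11, and the last 20 positions gave 0.10 in place of positions 39 to 72. Restricting net changes to those above 2 times the square root of the coverage raised the share at the 4 largest starts to 67.6% in Dnmt2-/- and 73.8% in WT, against 44.1% and 52.7% with all changes, and that at the 4 largest ends to 59.5% in Dnmt2-/- and 55.3% in WT, against 45.8% and 43.0%.

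The replicate numbers are shared by the genotypes in the labels only. Deviations of same-numbered libraries correlated at r = 0.86 over 23 families, a hint from the data and not from the design. With the replicate number as a block the Met log2 difference kept its size, at 0.25 (SE 0.34, limma adjusted p = 0.595) for the total, 0.056 for positions 1 to 31, −0.036 for the loop and −0.086 for positions 39 to 72, and 2 families passed for the total, 1 for the loop and 0 for the other windows, none of them Met. Without adjustment, limma with this block gave p under 0.05 for 6 of 23 family totals and 216 of 1656 positions. No position passed after adjustment, and the lowest limma adjusted p of a Met position was 0.366. Depth limits both ends of the table, with 22 to 71 reads at position 1 and 31 to 51 at position 72.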
